A study of Mus musculus with 8 samples.

Results

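Glycolysis and hypoxia response genes are the subject here, that is, the enzymes that turn glucose into pyruvate and lactate together with well-known transcriptional targets of the hypoxia-inducible factors (HIF). They were taken from a list of 36 genes. A gene entered where a probe set of the array carried its symbol and no other, and of several such probe sets the one with the highest mean signal stood for the gene. By this rule 33 of the 36 genes were measured, among 19938 genes in all. Ero1a was listed under its older symbol. Gapdh, whose probe sets carry several symbols, and Gpi1 and Eno1 were not analysed here.

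Messenger RNA was measured in mouse Th1 and Th17 cells, the helper T cell subsets known for interferon-gamma and interleukin-17. Wild-type cells came from Tet2(f/f) mice, which carry the floxed Tet2 allele without Cre. Tet2-deficient cells came from CD2(Cre)Tet2(f/f) mice, in which Cre is driven from CD2, a gene of the lymphocyte lineage, so both genotypes share the floxed allele. Each of the 4 groups (wild-type Th1, Tet2-deficient Th1, wild-type Th17 and Tet2-deficient Th17) has 2 arrays. The titles call the arrays biological replicates, and the labels give neither the age of the mice, nor the culture of the cells, nor whether animals were pooled. The p-values therefore measure the spread between these arrays, whatever its source. The series asks what Tet2, an enzyme that oxidises methylated cytosine in DNA, does in T helper differentiation.

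In the HIF system, prolyl hydroxylases mark the alpha subunit for destruction while oxygen is present, and in low oxygen the stable factor binds short hypoxia response elements in its target genes. Those targets include most glycolytic enzymes, the kinases that keep pyruvate out of the mitochondria, and the prolyl hydroxylases themselves. Activated T cells run glycolysis with oxygen present, and HIF-1 is known as a factor that Th17 cells use.

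Values are log2 probe-set signals, on which a difference of 1 is a 2-fold difference. The median gene of an array lay between 6.53 and 6.61. Most subset markers followed the labels in both genotypes. Of 6 Th1 genes, 4 were lower in Th17 cells in each genotype at an adjusted p under 0.05 (limma). All 4 measured Th17 genes were higher. Cxcr3 and Il18rap of the Th1 genes did not pass. In Tet2-deficient cells Il18rap had its higher mean in Th17 cells, at 7.18 and 7.19 on the Th17 and 6.74 and 7.34 on the Th1 arrays. The wild-type Th17 minus Th1 difference was -5.69 ± 0.14 for Ifng and 3.77 ± 0.16 for Il17a, and in Tet2-deficient cells it was -4.35 ± 0.14 and 3.07 ± 0.16. All 6 measured T cell genes lay above the array median in each group, while all 6 myeloid genes and 3 of the 4 measured B cell genes lay below it. Of 4 fibroblast genes 3 lay above it, Col1a1 highest at 7.24 to 7.59, and their summed log2 level was 8.99 to 9.08 on the Th1 and 8.83 to 8.90 on the Th17 arrays. None of the 4 was called, and their part in the results was not tested. The Tet2 probe set differed between genotypes by -0.03 ± 0.12 in Th1 cells (limma, adjusted p = 0.982) and by -0.14 ± 0.12 among the Th17 arrays (adjusted p = 0.99996), which checks nothing, because which exons the allele loses is not given in the sources used here. Xist, the RNA that coats the inactive X chromosome of female cells, was uneven among the Th17 arrays. The share of female RNA, from the linear Xist signal with the mean of the Th1 arrays as 0% and the highest array as 100%, was 0.187% and 42.9% on the wild-type Th17 arrays and 14.7% and 100% on the Tet2-deficient Th17 arrays, against -0.131% to 0.105% on the Th1 arrays. An alternative fit took this share as a covariate. Because every Th1 array lies near 0%, the share overlaps in part with the subset.

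Promoters of 4 members are printed first, because these members changed between the subsets in both genotypes, and were taken by their smallest p-value in either genotype among members with an entry in the promoter table. Bnip3 was taken on its brightest probe set, which is numbered among those of another chromosome. On its other probe set the adjusted p in Tet2-deficient cells was 0.0158 (limma), above the 0.00254 of Ddit4. The sequences are the bases of the promoter window that lie before the start of the gene in RefSeq (241 for Pdk1, 250 for Pfkl, 151 for P4ha1 and 250 for Bnip3), written 5′ to 3′ along the strand of the gene, in build GRCm38.p6. Pdk1 lies at chr2:71872974-71873214 on the plus strand, Pfkl at chr10:78009808-78010057 on the minus strand, P4ha1 at chr10:59323046-59323196 on the plus strand and Bnip3 at chr7:138909507-138909756 on the minus strand. Capitals mark the core of the hypoxia response element, ACGTG or GCGTG, read on either strand, so that CACGT and CACGC in the printed strand are the same core on the other strand. The palindrome CACGTG counts once for each strand.
Pdk1: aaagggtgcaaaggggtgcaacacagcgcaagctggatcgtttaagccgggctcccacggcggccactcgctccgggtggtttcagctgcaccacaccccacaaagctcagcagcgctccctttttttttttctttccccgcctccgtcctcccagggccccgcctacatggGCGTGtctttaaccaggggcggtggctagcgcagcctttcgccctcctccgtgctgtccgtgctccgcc
Pfkl: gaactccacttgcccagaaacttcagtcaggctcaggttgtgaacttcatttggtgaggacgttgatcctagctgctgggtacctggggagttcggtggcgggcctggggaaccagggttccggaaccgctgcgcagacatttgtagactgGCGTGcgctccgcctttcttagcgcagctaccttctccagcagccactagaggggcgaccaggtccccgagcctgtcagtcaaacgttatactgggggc
P4ha1: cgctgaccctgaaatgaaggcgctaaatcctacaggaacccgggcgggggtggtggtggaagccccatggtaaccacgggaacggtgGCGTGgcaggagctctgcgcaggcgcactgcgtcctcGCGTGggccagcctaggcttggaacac
Bnip3: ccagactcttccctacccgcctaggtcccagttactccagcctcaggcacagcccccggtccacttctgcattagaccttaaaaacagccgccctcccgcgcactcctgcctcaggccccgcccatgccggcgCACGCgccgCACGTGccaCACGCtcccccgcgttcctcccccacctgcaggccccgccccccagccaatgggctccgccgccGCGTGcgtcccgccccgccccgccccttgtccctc
The printed Bnip3 sequence held 5 cores, 3 of them on the opposite strand, the P4ha1 sequence held 2, and the Pdk1 and Pfkl sequences held 1 each. Over the whole windows of the table, which hold 250 bases before and 50 after the start that the table uses (for Pdk1 and P4ha1 a start inside the annotated gene), 24 of the 31 members with an entry (77.4%) had a core, against 8083 of the 15563 tested genes with an entry (51.9%). At least 2 cores stood in 17 of the 31 members (54.8%) and in 26.7% of those genes. The core holds a CG pair, and the member windows also had more CG pairs, with a median of 24 against 15 over the tested genes. Among members that rose in Th17 cells in either genotype, 10 of 11 had a core (median 26 CG pairs), and among the others 14 of 20 had 1 (median 19 CG pairs). Mxi1, Hk1, Aldoa, Tpi1, Eno2, Pkm and Vegfa had none in these windows. Ndrg1 and Bnip3l had no entry. A core is a match of 5 letters and was not tested for binding.

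Wild-type Th17 and Th1 cells differed in 10 of the 33 genes (30.3%), against 8.4% of all genes, at an adjusted p under 0.05 (limma, moderated test, Benjamini-Hochberg over 19938 genes, 2 arrays per group). Pfkl, P4ha1, Pdk1, Kdm3a, Pfkfb3, Bnip3, Egln1 and Ddit4 were higher in Th17 cells, 8 genes or 24.2% of the members against 4.97% of all genes. Hk2 and Car9 were lower, which is 6.06% of the members against 3.44% of all genes. In Tet2-deficient cells 15 members differed (45.5%, against 10.1% of all genes). The same 8 genes were higher there, and Pdk3, Bnip3l, Mxi1 and Pfkm joined them, so that 12 members (36.4%) rose against 6.32% of all genes. Hk2 and Car9 were lower again, with Egln3, giving 3 members (9.09%) against 3.79% of all genes. With genes under the median signal left out, 9 of 30 members were called in wild-type cells, against 1569 of 9969 genes. Of these, 8 members and 1149 genes were higher, and 1 member and 420 genes were lower. In Tet2-deficient cells 14 of 30 members were called, 12 higher and 2 lower. Among all the brighter genes there 1905 of 9969 were called, 1374 higher and 531 lower. Against these brighter genes the contrast was smaller than against all genes. In bulk RNA of this kind, fewer cells of a type and less RNA per cell cannot be told apart.

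The median difference of the members was 0.19 in wild-type cells, where that of all genes was -0.03, and 0.13 in Tet2-deficient cells, where that of all genes was also -0.03. The difference was above 0 for 22 members in wild-type cells (66.7%, against 44.9% of all genes) and below 0 for 11 (33.3%, against 55.1%). In Tet2-deficient cells it was above 0 for 25 (75.8%, against 44.3%) and below 0 for 8 (24.2%, against 55.7%). Counted without a test, the Th17 arrays lay wholly above the Th1 arrays for 19 members in wild-type cells (57.6%, against 23.8% of all genes) and for 16 in Tet2-deficient cells (48.5%, against 25.8%). They lay wholly below for 4 members in each genotype (12.1%, against 28.4% and 31.7% of all genes).

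**Figure D1:**
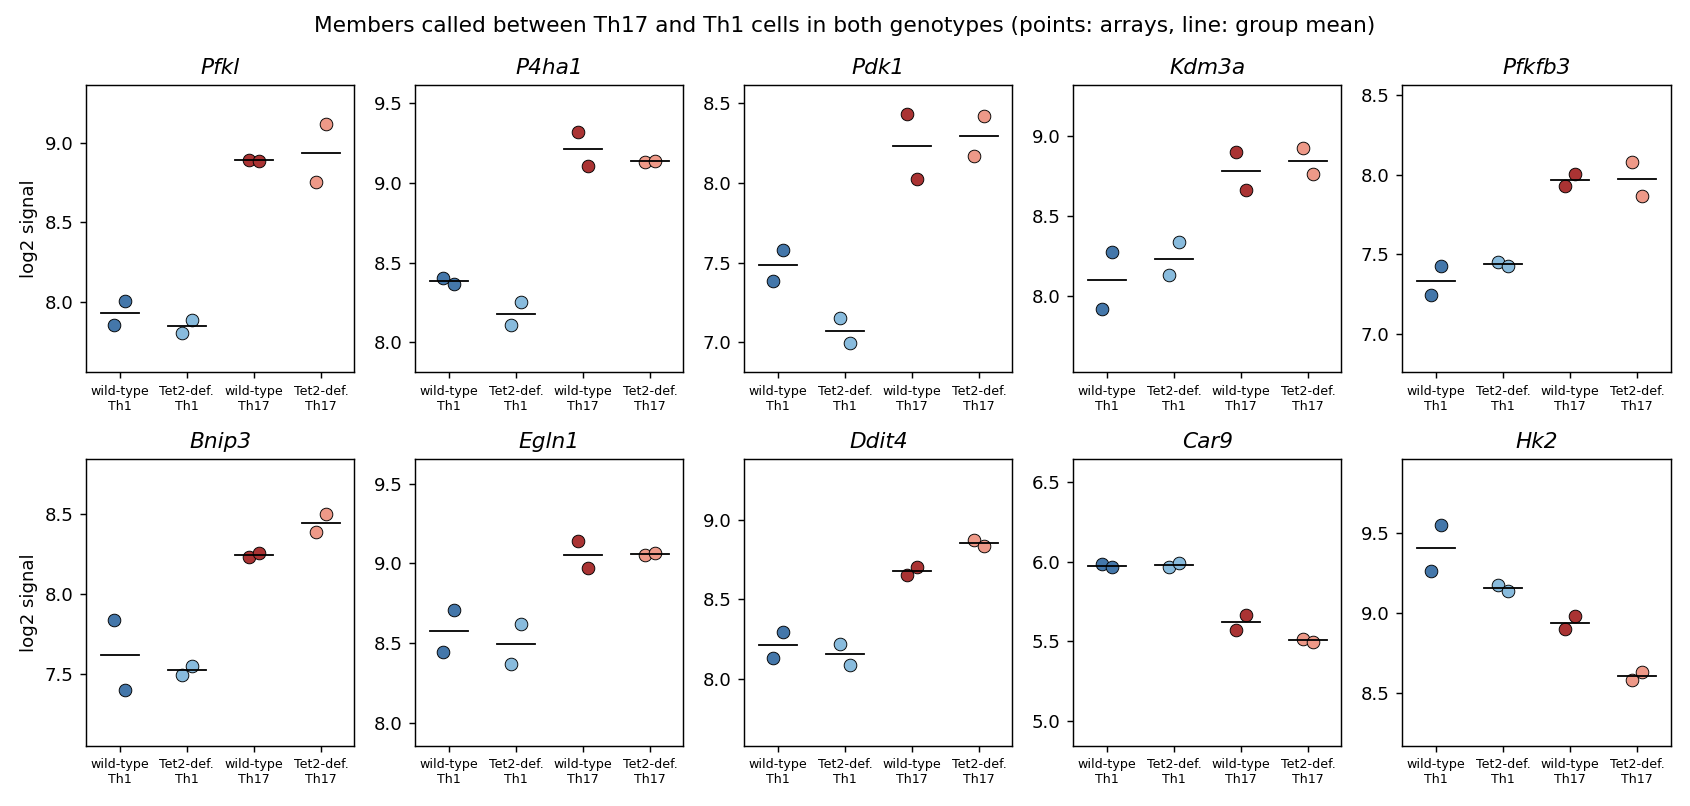
Log2 signal of the 10 members that differed between Th17 and Th1 cells in both genotypes. Each point is 1 array, and the line is the mean of the 2 arrays of a group. All panels span the same range of log2 signal, each around its own centre. For Pfkl, P4ha1, Pdk1, Kdm3a, Pfkfb3, Bnip3, Egln1 and Ddit4 all 4 Th17 arrays lie above all 4 Th1 arrays, and for Car9 and Hk2 all lie below.

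How many members passed depended on single arrays and on the fit, and so did the number of all genes that passed, which is given at the end. Leaving out 1 array leaves a group with a lone array, which is then taken to vary like the other groups. In place of the 10 wild-type calls, 3 were made without wild-type Th17 replicate 1, 4 without wild-type Th17 replicate 2, 4 without wild-type Th1 replicate 1 and 6 when 1 or the other Tet2-deficient Th17 array was left out. In Tet2-deficient cells 6 calls were made when Tet2-deficient Th1 replicate 1 or 1 of the Tet2-deficient Th17 arrays was left out, and 9 without Tet2-deficient Th1 replicate 2, in place of 15. Pfkl and P4ha1 passed in both genotypes, and Pdk1, Bnip3 and Ddit4 in Tet2-deficient cells, under all 19 alternatives that were run. With the female share as a covariate, Pfkl, Pdk1, P4ha1, Pfkfb3, Bnip3 and Kdm3a passed in wild-type cells, and Pfkl, Pdk1, P4ha1, Bnip3 and Ddit4 in Tet2-deficient cells. Over all genes 1186 and 726 passed there, against 1675 and 2015 in the main fit. The wild-type differences that lost their call there were slightly larger than before. In Tet2-deficient cells those of Hk2, Kdm3a, Pfkfb3, Egln1, Bnip3l and Car9 were larger, and those of Pdk3, Pfkm, Egln3 and Mxi1 smaller. A fit on every probe set of the array kept Pfkl and P4ha1 in wild-type cells and Pfkl, Pdk1, P4ha1, Bnip3 and Ddit4 in Tet2-deficient cells. It called 599 of all 35556 probe sets in wild-type and 1001 in Tet2-deficient cells. Centring each array on its median gave 8 higher and 0 lower calls in wild-type cells beside the 8 and 2 above, and a further quantile normalization gave 6 higher and 3 lower in Tet2-deficient cells beside the 12 and 3. Over all genes the first gave 1229 higher and 569 lower, beside 990 and 685. The second gave 906 and 726, beside 1260 and 755.

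In the upper part of glycolysis, from glucose to the triose phosphates, 2 of 10 members rose and 1 fell in wild-type Th17 cells. In Tet2-deficient Th17 cells 3 rose and 1 fell. Of all genes, 4.97% were called higher and 3.44% lower in wild-type cells, and 6.32% and 3.79% in Tet2-deficient cells. These shares also stand beside the small counts by role that follow. Pfkl, the liver-type subunit of phosphofructokinase and so part of the committed step of the pathway, stood at 7.86 and 8.01 on the wild-type Th1 arrays, 7.81 and 7.89 on the Tet2-deficient Th1 arrays, 8.89 and 8.89 on the wild-type Th17 arrays and 8.75 and 9.12 on the Tet2-deficient Th17 arrays. Every Th17 array was above every Th1 array. The difference was 0.96 ± 0.14 in wild-type cells, 1.95-fold (limma, adjusted p = 0.000920), and 1.09 ± 0.14 in Tet2-deficient cells, 2.12-fold (adjusted p = 0.000330). The values after ± are standard errors, here and throughout.

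Pfkfb3 makes fructose 2,6-bisphosphate, the activator of phosphofructokinase, and stood at 7.25 and 7.43 on the wild-type Th1 arrays, 7.45 and 7.43 on the Tet2-deficient Th1 arrays, 7.93 and 8.0 on the wild-type Th17 arrays and 8.08 and 7.86 on the Tet2-deficient Th17 arrays. Again the subsets did not overlap. It was 0.63 ± 0.12 (adjusted p = 0.00726) higher in wild-type and 0.53 ± 0.12 (adjusted p = 0.0158) higher in Tet2-deficient Th17 cells. The wild-type call was lost without wild-type Th1 replicate 1 (0.54, adjusted p = 0.0523) or wild-type Th17 replicate 2 (0.59, adjusted p = 0.0656). The Tet2-deficient call was lost without Tet2-deficient Th1 replicate 1 (0.54, adjusted p = 0.0820), Tet2-deficient Th1 replicate 2 (0.52, adjusted p = 0.0781) or Tet2-deficient Th17 replicate 1 (0.42, adjusted p = 0.167). Pfkfb4, a related enzyme, had signals of 6.33 to 6.52, under the array median on every array, and differences of -0.08 ± 0.11 and 0.08 ± 0.11 that did not pass.

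Pfkm, the muscle-type subunit, stood at 6.64 and 6.69 on the wild-type Th1 arrays, 6.85 and 6.70 on the Tet2-deficient Th1 arrays, 7.01 and 6.95 on the wild-type Th17 arrays and 7.09 and 7.27 on the Tet2-deficient Th17 arrays. All Th17 arrays lay above all Th1 arrays, with the lowest Th17 array only slightly above the highest Th1 array. The difference was 0.40 ± 0.11 (adjusted p = 0.0433) in Tet2-deficient cells and 0.32 ± 0.11, which did not pass, in wild-type cells (adjusted p = 0.108). The Tet2-deficient call held with 1 of the wild-type Th1 arrays left out and ended without any other array (adjusted p from 0.0558 to 0.252). Pfkp, the platelet-type subunit, ran from 10.29 to 10.79 with overlapping subsets, and its differences of -0.07 ± 0.14 and -0.21 ± 0.14 did not pass, so that Pfkl was the one subunit called in both genotypes.

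Hk2, the inducible hexokinase that traps glucose in the cell, stood at 9.27 and 9.55 on the wild-type Th1 arrays, 9.18 and 9.14 on the Tet2-deficient Th1 arrays, 8.90 and 8.98 on the wild-type Th17 arrays and 8.58 and 8.63 on the Tet2-deficient Th17 arrays. Its order was opposite to that of Pfkl, with all Th17 arrays below all Th1 arrays and the Tet2-deficient Th17 arrays lowest. The difference was -0.47 ± 0.13 (adjusted p = 0.0406) in wild-type and -0.55 ± 0.13 (adjusted p = 0.0160) in Tet2-deficient cells. With 1 array left out, the wild-type call held for wild-type Th1 replicate 1 and ended for each other array (adjusted p from 0.0549 to 0.164). The Tet2-deficient call was lost without Tet2-deficient Th1 replicate 1 (-0.53, adjusted p = 0.0977), Tet2-deficient Th1 replicate 2 (-0.57, adjusted p = 0.0633), Tet2-deficient Th17 replicate 1 (-0.53, adjusted p = 0.127) or Tet2-deficient Th17 replicate 2 (-0.58, adjusted p = 0.0775). Hk1, the constitutive hexokinase, ranged from 12.91 to 13.22, and its differences of 0.21 ± 0.12 and 0.09 ± 0.12 did not pass and were of the other sign on a second probe set of the gene.

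The aldolases split fructose 1,6-bisphosphate. Aldoa was at 12.02 and 11.90 on the wild-type Th1 arrays, 12.38 and 11.89 on the Tet2-deficient Th1 arrays, 11.41 and 11.63 on the wild-type Th17 arrays and 11.71 and 11.75 on the Tet2-deficient Th17 arrays. Within each genotype the Th17 arrays were below the Th1 arrays, with differences of -0.44 ± 0.16 (adjusted p = 0.112) and -0.41 ± 0.16 (adjusted p = 0.133), and neither passed. Without Tet2-deficient Th1 replicate 2 the second passed, the only case among the members not called in which an alternative made a call in the Tet2-deficient subset comparison. Aldoc ran from 9.41 to 9.93, with differences of 0.16 ± 0.14 and 0.00 ± 0.14 that did not pass. Tpi1, which interconverts the triose phosphates, ran from 9.76 to 10.44. Tpi1 differed by 0.29 ± 0.15 and 0.29 ± 0.15, with its Th17 arrays above its Th1 arrays in both genotypes, and did not pass in either.

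None of the 4 measured members of the lower part, from the triose phosphates to pyruvate, passed in either genotype, by the same limma test, and only Eno2 had an unadjusted p under 0.05. Eno2, an enolase first known from neurons, stood at 6.97 and 6.85 on the wild-type Th1 arrays, 7.13 and 6.90 on the Tet2-deficient Th1 arrays, 7.19 and 7.41 on the wild-type Th17 arrays and 7.31 and 7.41 on the Tet2-deficient Th17 arrays. All Th17 arrays lay above all Th1 arrays, by 0.39 ± 0.13 (adjusted p = 0.0769) and 0.34 ± 0.13 (adjusted p = 0.110). The phosphoglycerate kinase Pgk1 lay between 12.20 and 12.50, the mutase Pgam1 between 9.98 and 10.30 and the pyruvate kinase Pkm between 10.69 and 11.11. Their wild-type differences were 0.08 ± 0.14, 0.19 ± 0.14 and -0.18 ± 0.15, and their Tet2-deficient differences were 0.14 ± 0.14, 0.09 ± 0.14 and -0.05 ± 0.15.

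Among the 4 members that decide the fate of pyruvate, Pdk1 rose in both genotypes, Pdk3 in Tet2-deficient cells, and the lactate dehydrogenases gave no call. Pdk1, which shuts the pyruvate dehydrogenase complex by phosphorylation, stood at 7.38 and 7.58 on the wild-type Th1 arrays, 7.15 and 6.99 on the Tet2-deficient Th1 arrays, 8.44 and 8.02 on the wild-type Th17 arrays and 8.17 and 8.42 on the Tet2-deficient Th17 arrays. The subsets were far apart, and the Tet2-deficient Th1 arrays were the lowest of all. It was 0.75 ± 0.15 higher in wild-type Th17 cells, 1.68-fold (adjusted p = 0.0104), and 1.22 ± 0.15 higher in Tet2-deficient Th17 cells, 2.33-fold (adjusted p = 0.000329). The wild-type call was lost without wild-type Th1 replicate 1 (0.65, adjusted p = 0.0717) or wild-type Th17 replicate 1 (0.54, adjusted p = 0.0822).

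Pdk3, a second kinase of the complex, encoded on the X chromosome, stood at 8.13 and 8.37 on the wild-type Th1 arrays, 8.03 and 7.97 on the Tet2-deficient Th1 arrays, 8.69 and 8.53 on the wild-type Th17 arrays and 8.50 and 8.66 on the Tet2-deficient Th17 arrays. Its Th17 arrays were all above its Th1 arrays. It passed in Tet2-deficient cells, at 0.58 ± 0.13 (adjusted p = 0.0135), and not in wild-type cells, at 0.36 ± 0.13 (adjusted p = 0.105). That call was lost without Tet2-deficient Th1 replicate 1 (0.61, adjusted p = 0.0633), Tet2-deficient Th1 replicate 2 (0.55, adjusted p = 0.0780) or Tet2-deficient Th17 replicate 2 (0.50, adjusted p = 0.115). With the female share of 14.7% and 100% on these Th17 arrays as a covariate it also ended, at 0.53 with an adjusted p of 0.156. Members on other chromosomes lost their Tet2-deficient calls in that fit too, among them Hk2, Kdm3a and Pfkfb3. Whether the X chromosome had a part was not tested.

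Ldha, which makes lactate from pyruvate, stood at 12.44 and 12.49 on the wild-type Th1 arrays, 12.81 and 12.45 on the Tet2-deficient Th1 arrays, 12.58 and 12.67 on the wild-type Th17 arrays and 12.65 and 12.67 on the Tet2-deficient Th17 arrays. Only the wild-type arrays separated by subset, and the differences of 0.16 ± 0.14 (adjusted p = 0.517) and 0.03 ± 0.14 (adjusted p = 0.933) did not pass. Ldhb, the subunit that favours the reverse reaction, ran from 6.28 to 6.93 with overlapping subsets, and differed by -0.16 ± 0.14 and -0.06 ± 0.14.

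Of the 5 dioxygenases, enzymes that need oxygen and 2-oxoglutarate to work, 3 rose in wild-type Th17 cells (against 4.97% of all genes). In Tet2-deficient Th17 cells the same 3 rose (against 6.32%) and 1 fell (against 3.79%). P4ha1, the catalytic subunit of collagen prolyl 4-hydroxylase, stood at 8.40 and 8.37 on the wild-type Th1 arrays, 8.11 and 8.25 on the Tet2-deficient Th1 arrays, 9.32 and 9.11 on the wild-type Th17 arrays and 9.13 and 9.14 on the Tet2-deficient Th17 arrays. Every Th17 array stood above every Th1 array by a wide margin. The difference was 0.83 ± 0.12 in wild-type cells, 1.77-fold (adjusted p = 0.00118), and 0.95 ± 0.12 in Tet2-deficient cells, 1.94-fold (adjusted p = 0.000367). Its relative P4ha2 lay between 5.55 and 5.78, under the array median on every array, and differed by -0.07 ± 0.11 and 0.03 ± 0.11, without a call.

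Kdm3a, a histone H3 demethylase, stood at 7.92 and 8.27 on the wild-type Th1 arrays, 8.13 and 8.33 on the Tet2-deficient Th1 arrays, 8.90 and 8.66 on the wild-type Th17 arrays and 8.92 and 8.76 on the Tet2-deficient Th17 arrays. The subsets did not overlap, although the Th1 arrays were spread more widely than the Th17 arrays. It rose by 0.69 ± 0.15 (adjusted p = 0.0138) in wild-type and 0.61 ± 0.15 (adjusted p = 0.0214) in Tet2-deficient cells. The wild-type call was lost without wild-type Th1 replicate 1 (0.51, adjusted p = 0.0973) or wild-type Th17 replicate 1 (0.57, adjusted p = 0.0937). The Tet2-deficient call was lost without Tet2-deficient Th1 replicate 1 (0.51, adjusted p = 0.164), Tet2-deficient Th17 replicate 1 (0.53, adjusted p = 0.172) or Tet2-deficient Th17 replicate 2 (0.69, adjusted p = 0.0598).

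The HIF prolyl hydroxylases Egln1 and Egln3 moved in opposite directions in Tet2-deficient cells. Egln1 (PHD2), the main oxygen sensor of the system, stood at 8.44 and 8.71 on the wild-type Th1 arrays, 8.37 and 8.62 on the Tet2-deficient Th1 arrays, 9.14 and 8.97 on the wild-type Th17 arrays and 9.05 and 9.06 on the Tet2-deficient Th17 arrays. All Th17 arrays were above all Th1 arrays. The wild-type difference was 0.48 ± 0.14 (adjusted p = 0.0496). With 1 array left out, that call held for wild-type Th1 replicate 2 and ended for each other array (adjusted p from 0.0513 to 0.227). In Tet2-deficient cells it was 0.56 ± 0.14 (adjusted p = 0.0214) and was lost without Tet2-deficient Th1 replicate 1 (0.44, adjusted p = 0.176), Tet2-deficient Th17 replicate 1 (0.57, adjusted p = 0.125) or Tet2-deficient Th17 replicate 2 (0.56, adjusted p = 0.107).

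Egln3 (PHD3), itself a known HIF target, stood at 11.63 and 11.89 on the wild-type Th1 arrays, 11.94 and 11.57 on the Tet2-deficient Th1 arrays, 11.65 and 11.58 on the wild-type Th17 arrays and 11.23 and 11.15 on the Tet2-deficient Th17 arrays. The Tet2-deficient Th17 arrays were the lowest of the 8, and the wild-type subsets overlapped. The difference was -0.57 ± 0.15 (adjusted p = 0.0317) in Tet2-deficient and -0.15 ± 0.15 (adjusted p = 0.593) in wild-type cells. The first was lost without Tet2-deficient Th1 replicate 1 (-0.38, adjusted p = 0.237), Tet2-deficient Th17 replicate 1 (-0.60, adjusted p = 0.149) or Tet2-deficient Th17 replicate 2 (-0.53, adjusted p = 0.174). The gap between the genotypes in this difference did not pass (-0.42 ± 0.21, adjusted p = 0.999).

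Of the 6 members tied to mitochondria and stress, 2 rose in wild-type Th17 cells (against 4.97% of all genes) and 4 in Tet2-deficient Th17 cells (against 6.32%). Bnip3, a mitochondrial outer membrane receptor for mitophagy, stood at 7.84 and 7.40 on the wild-type Th1 arrays, 7.49 and 7.55 on the Tet2-deficient Th1 arrays, 8.24 and 8.26 on the wild-type Th17 arrays and 8.39 and 8.50 on the Tet2-deficient Th17 arrays. The Th17 arrays were all above the Th1 arrays and closer together than the wild-type Th1 arrays. It rose by 0.63 ± 0.14 (adjusted p = 0.0177) in wild-type and 0.92 ± 0.14 (adjusted p = 0.00138) in Tet2-deficient cells. The wild-type call was lost without wild-type Th1 replicate 2 (0.41, adjusted p = 0.0911), wild-type Th17 replicate 1 (0.64, adjusted p = 0.0664) or wild-type Th17 replicate 2 (0.62, adjusted p = 0.102). A second probe set of the gene gave a Tet2-deficient difference of 0.50.

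Bnip3l, the related receptor also called Nix, stood at 10.51 and 10.39 on the wild-type Th1 arrays, 10.84 and 10.55 on the Tet2-deficient Th1 arrays, 10.87 and 10.78 on the wild-type Th17 arrays and 11.14 and 11.16 on the Tet2-deficient Th17 arrays. Within a genotype the subsets did not overlap, but 1 wild-type Th17 array was below 1 Tet2-deficient Th1 array. The difference passed in Tet2-deficient cells, at 0.45 ± 0.13 (adjusted p = 0.0486), and not in wild-type cells, at 0.37 ± 0.13 (adjusted p = 0.104). The call held with 1 of the wild-type Th1 arrays or Tet2-deficient Th1 replicate 1 left out, and ended without each other array (adjusted p from 0.0651 to 0.270). Without Tet2-deficient Th1 replicate 2 the difference was 0.31.

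Ddit4 (REDD1), an inhibitor of mTORC1 signalling induced by low oxygen and energy stress, stood at 8.13 and 8.29 on the wild-type Th1 arrays, 8.22 and 8.09 on the Tet2-deficient Th1 arrays, 8.65 and 8.70 on the wild-type Th17 arrays and 8.87 and 8.84 on the Tet2-deficient Th17 arrays. The subsets were clearly apart, and the Tet2-deficient Th17 arrays were the highest. It rose by 0.47 ± 0.12 (adjusted p = 0.0296) in wild-type and 0.70 ± 0.12 (adjusted p = 0.00254) in Tet2-deficient cells. The wild-type call was lost without wild-type Th1 replicate 1 (0.38, adjusted p = 0.136), wild-type Th17 replicate 1 (0.49, adjusted p = 0.0862), wild-type Th17 replicate 2 (0.44, adjusted p = 0.160), Tet2-deficient Th17 replicate 1 (0.47, adjusted p = 0.0514) or Tet2-deficient Th17 replicate 2 (0.47, adjusted p = 0.0514).

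Mxi1, a Max partner that opposes Myc, stood at 7.52 and 7.34 on the wild-type Th1 arrays, 7.14 and 7.28 on the Tet2-deficient Th1 arrays, 7.68 and 7.76 on the wild-type Th17 arrays and 7.60 and 7.63 on the Tet2-deficient Th17 arrays. Every Th17 array was above every Th1 array, by 0.41 ± 0.12 (adjusted p = 0.0445) in Tet2-deficient and 0.29 ± 0.12 (adjusted p = 0.143) in wild-type cells, and only the first passed. That call held with 1 of the wild-type Th1 arrays left out and ended without each other array (adjusted p from 0.0562 to 0.248). Ndrg1, a stress-induced gene, ran from 9.28 to 9.67, and Higd1a, a small mitochondrial protein induced by hypoxia, from 6.93 to 7.33. Their subsets overlapped in both genotypes, and their differences (Ndrg1 0.14 ± 0.15 and -0.05 ± 0.15, Higd1a -0.04 ± 0.13 and 0.08 ± 0.13) did not pass.

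Among the 4 remaining targets, only Car9 passed, and it was lower in Th17 cells. Car9, a membrane carbonic anhydrase often used as a hypoxia marker, stood at 5.98 and 5.96 on the wild-type Th1 arrays, 5.97 and 5.99 on the Tet2-deficient Th1 arrays, 5.57 and 5.66 on the wild-type Th17 arrays and 5.51 and 5.50 on the Tet2-deficient Th17 arrays. All Th17 arrays were below all Th1 arrays, yet all 8 lay under the array median, so the probe set was dim throughout. The differences were -0.36 ± 0.10 (adjusted p = 0.0492) and -0.47 ± 0.10 (adjusted p = 0.0108). The wild-type call ended with any 1 array left out (adjusted p from 0.0665 to 0.190). The Tet2-deficient call was lost without Tet2-deficient Th1 replicate 1 (-0.49, adjusted p = 0.0595), Tet2-deficient Th1 replicate 2 (-0.46, adjusted p = 0.0615), Tet2-deficient Th17 replicate 1 (-0.48, adjusted p = 0.0735) or Tet2-deficient Th17 replicate 2 (-0.47, adjusted p = 0.0661).

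Vegfa, the vascular growth factor, stood at 7.85 and 7.72 on the wild-type Th1 arrays, 7.89 and 8.12 on the Tet2-deficient Th1 arrays, 8.07 and 8.26 on the wild-type Th17 arrays and 8.24 and 8.03 on the Tet2-deficient Th17 arrays. In wild-type cells the Th17 arrays were above the Th1 arrays, and in Tet2-deficient cells they overlapped. Its differences of 0.38 ± 0.13 (adjusted p = 0.100) and 0.13 ± 0.13 (adjusted p = 0.611) did not pass. Ero1a, an oxidase of disulfide formation in the endoplasmic reticulum, stood at 10.35 and 10.67 on the wild-type Th1 arrays, 10.21 and 10.17 on the Tet2-deficient Th1 arrays, 10.54 and 10.32 on the wild-type Th17 arrays and 10.21 and 10.29 on the Tet2-deficient Th17 arrays. Here the wild-type arrays overlapped and the Tet2-deficient Th17 arrays were slightly above the Th1 arrays, with differences of -0.08 ± 0.14 and 0.07 ± 0.14 that did not pass. Ankrd37 lay between 6.53 and 7.10 with overlapping subsets, and differed by 0.17 ± 0.17 and 0.22 ± 0.17.

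The comparisons in the 2 genotypes share no arrays, but the spread of each gene was estimated once from all 8 arrays. Calls in the 2 genotypes are therefore not independent of each other. The sign of the Th17 minus Th1 difference was the same in both for 28 of 33 members (84.8%), and for 74.5% of all genes. All 10 genes called in wild-type cells were also called, in the same direction, in Tet2-deficient cells, which is 66.7% of the 15 calls there. Over all genes, 61.0% of wild-type calls and 50.7% of Tet2-deficient calls were shared in this way. Across the 33 members the differences in the 2 genotypes had a Pearson r of 0.93, against 0.81 across all genes. These are descriptions, since the genes share arrays and are not independent replicates.

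**Figure D2:**
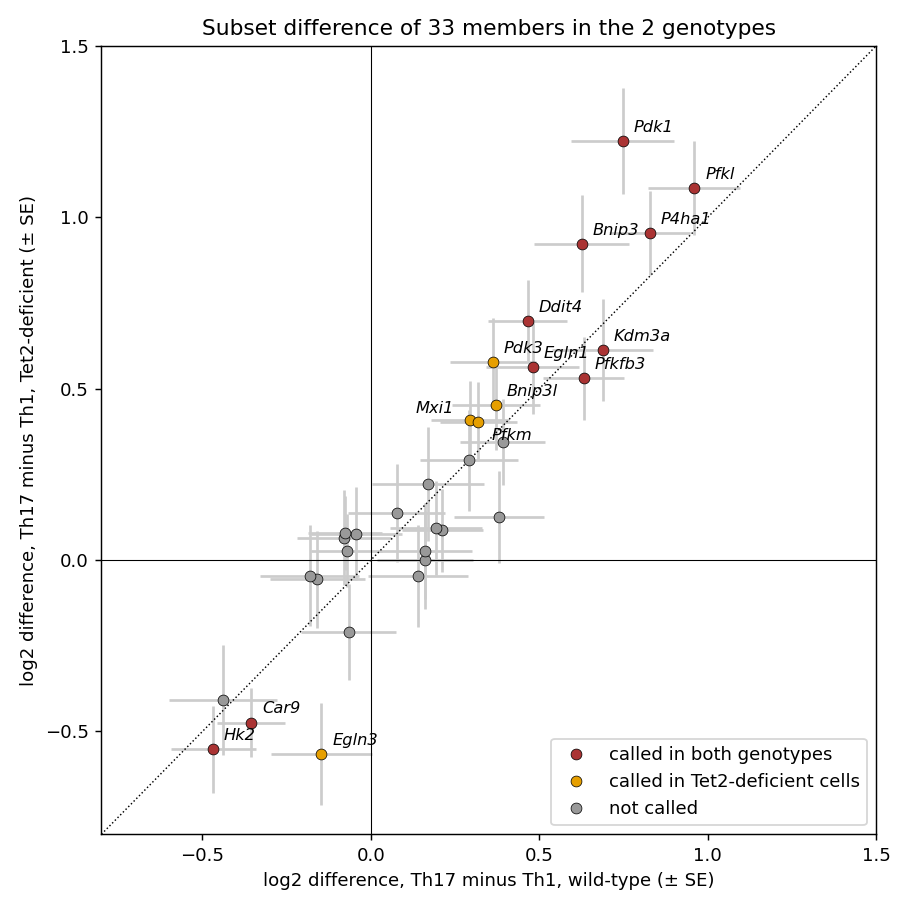
Th17 minus Th1 log2 difference of the 33 members in wild-type cells (horizontal) and Tet2-deficient cells (vertical). Grey bars are standard errors from the limma fit, the dotted line marks equal differences, red marks the 10 genes called in both genotypes and orange the 5 called in Tet2-deficient cells. Pdk1, at 0.75 and 1.22, lies farthest above the line among the labelled genes.

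For the loss of Tet2, no member passed in either subset. In Th1 cells 0 of 33 were called, as against 1 gene of 19938 (0.00502%), and 2 members had an unadjusted p under 0.05 (6.06%, against 6.05% of all genes). In Th17 cells 0 were called, as against 0.0% of all genes, with 3 members at an unadjusted p under 0.05 (9.09%, against 4.13%). Both counts were 0 under every alternative run, all of them by limma. The median Tet2-deficient minus wild-type difference of the members was 0.02 in Th1 and 0.04 in Th17 cells, where that of all genes was 0.01 in each. In Th1 cells 19 members were above 0 (57.6%, against 54.1% of all genes) and 14 below (42.4%, against 45.9%), and in Th17 cells 22 were above (66.7%, against 54.4%) and 11 below (33.3%, against 45.6%). The 95% confidence intervals of the members together spanned -0.74 to 0.60 in Th1 cells and -0.75 to 0.61 in Th17 cells.

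The members at an unadjusted p under 0.05 are named as descriptions, since none passed. Pdk1 in Th1 cells was 7.38 and 7.58 with Tet2 and 7.15 and 6.99 without it, a difference of -0.41 ± 0.15 (adjusted p = 0.797). Ero1a in Th1 cells was 10.35 and 10.67 with Tet2 and 10.21 and 10.17 without it, a difference of -0.32 ± 0.14 (adjusted p = 0.821). For both, the Tet2-deficient arrays were below the wild-type arrays. In Th17 cells Egln3 differed by -0.43 ± 0.15, Hk2 by -0.33 ± 0.13 and Bnip3l by 0.33 ± 0.13, each with an adjusted p of 0.99996.

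Without a test, the Tet2-deficient arrays lay wholly above the wild-type arrays for 10 members in Th1 cells (30.3%, against 19.6% of all genes) and for 9 in Th17 cells (27.3%, against 18.8%). They lay wholly below for 7 in Th1 cells (21.2%, against 13.7%) and for 5 in Th17 cells (15.2%, against 14.1%). Hk2, Ero1a and Mxi1 were below in both subsets. Aldoc, Bnip3l, Ldhb, P4ha2 and Pfkm were above in both. How many of all genes kept apart in both subsets was not counted. P4ha2 lay under the array median on every array, and on a second probe set of Ldhb the genotypes overlapped in both subsets. For Hk2 the values were -0.25 ± 0.13 in Th1 and -0.33 ± 0.13 in Th17 cells, and for Bnip3l 0.24 ± 0.13 and 0.33 ± 0.13.

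**Figure D3:**
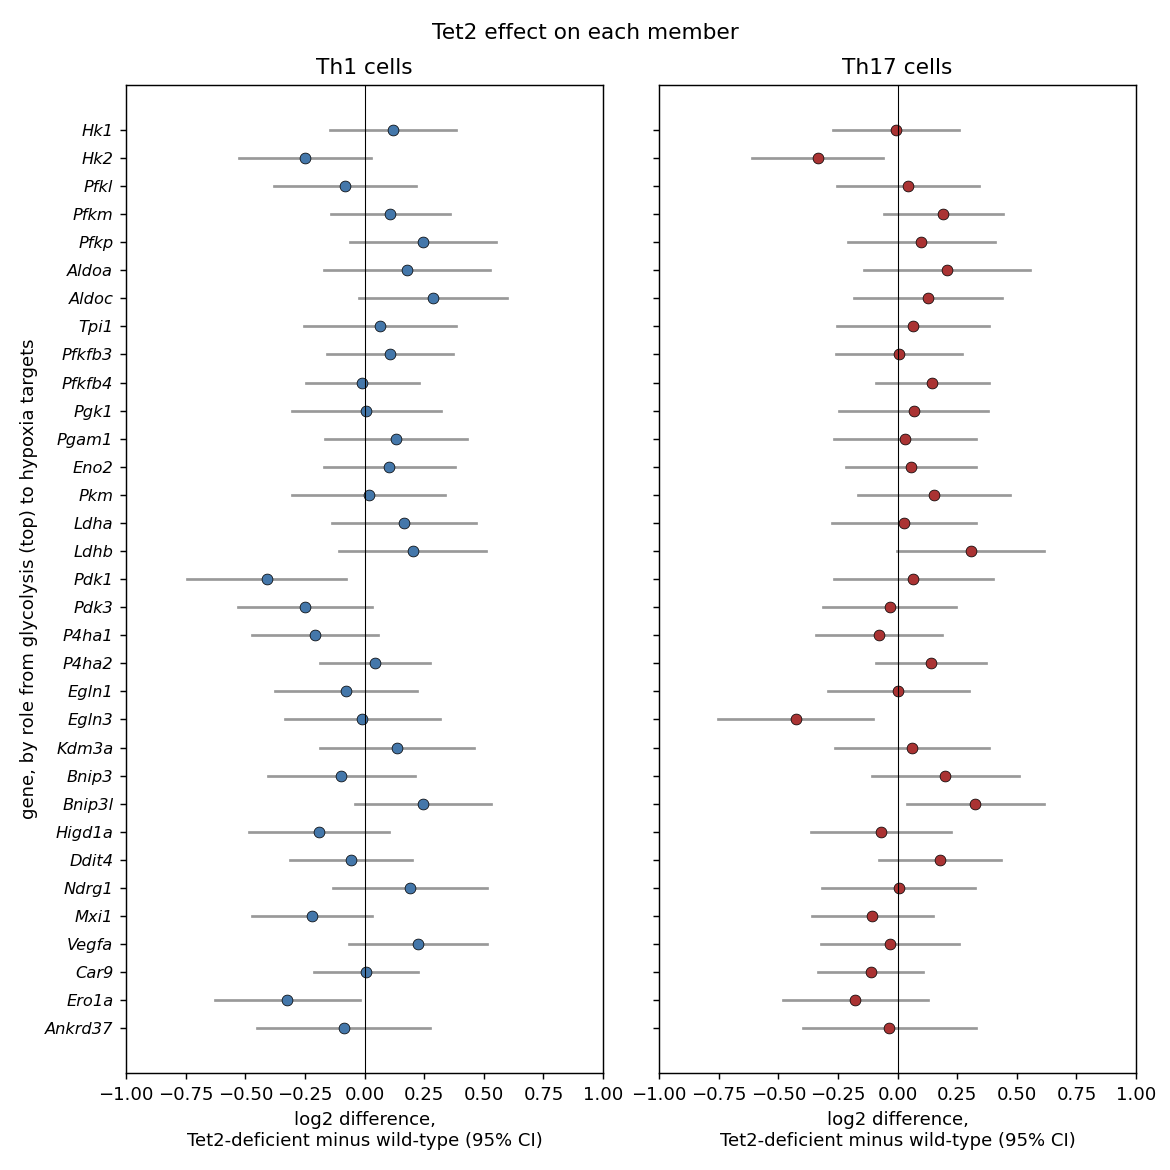
Tet2-deficient minus wild-type log2 difference of each of the 33 members in Th1 cells (left) and Th17 cells (right), with 95% confidence intervals from the limma fit, in order of role from glycolysis at the top to other hypoxia targets. Most intervals include 0, none of the differences passed after adjustment, and the lowest points are Pdk1 in Th1 cells (-0.41) and Egln3 in Th17 cells (-0.43).

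Whether the effect of Tet2 differed between the subsets was tested as the Th17 effect minus the Th1 effect. No member was called, as against 0.0% of all genes, and 1 (3.03%, against 4.48% of all genes) had an unadjusted p under 0.05. That was Pdk1, at 0.48 ± 0.22 (unadjusted p = 0.0484, adjusted p = 0.999). The same quantity is the gap between its subset differences of 1.22 and 0.75. The intervals over the members spanned -0.88 to 0.95, and their median was 0.06, where that of all genes was 0.00. It was above 0 for 19 members (57.6%) and below 0 for 14 (42.4%), against 50% of all genes on either side. Calls made in only 1 genotype (Pdk3, Bnip3l, Mxi1, Pfkm and Egln3) are therefore not shown to differ between genotypes. Proliferation genes, a list of 5 measured here, were also uneven. Their median Th17 minus Th1 difference was -0.47 in wild-type cells, with 5 of 5 below 0, and 0.20 in Tet2-deficient cells, with 4 of 5 above 0. None of the 5 passed, their summed log2 level was 11.4 to 11.6 in wild-type Th1, 11.0 to 11.2 in Tet2-deficient Th1 and wild-type Th17 and 11.0 to 11.6 in Tet2-deficient Th17 cells, and its part in the differences of the members was not tested.

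For 8 members (Bnip3, Bnip3l, Higd1a, Hk1, Ldhb, Pgam1, Pgk1 and Pkm) the array has several probe sets, and in each case the brightest one, used above, has a number that falls among those of another chromosome. Probe-set numbers follow chromosomes closely: of 18806 genes with a single probe set, 99.9% are numbered among genes of their own chromosome. Where a probe set stands apart, what it measures besides the gene was not tested. The probe set numbered within the chromosome of the gene gave 0.49 ± 0.11 for Bnip3 in wild-type cells (adjusted p = 0.0216) and 0.50 ± 0.11 in Tet2-deficient cells (adjusted p = 0.0158), so both calls held, with the second at a smaller size than the 0.92 above. For Bnip3l it gave 0.37 ± 0.12 (adjusted p = 0.0848) and 0.49 ± 0.12 (adjusted p = 0.0251), with the same calls. Hk1 turned in sign, at -0.26 ± 0.12 and -0.24 ± 0.12 in place of 0.21 and 0.09, and passed with neither. Higd1a was 0.40 ± 0.15 in wild-type cells in place of -0.04, without a call. For Ldhb, Pgam1, Pgk1 and Pkm neither of the probe sets compared gave a call. Pgam1 and Pgk1 have 3 probe sets each, and for each gene a probe set repeats the values of another on all 8 arrays.

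**Figure D4:**
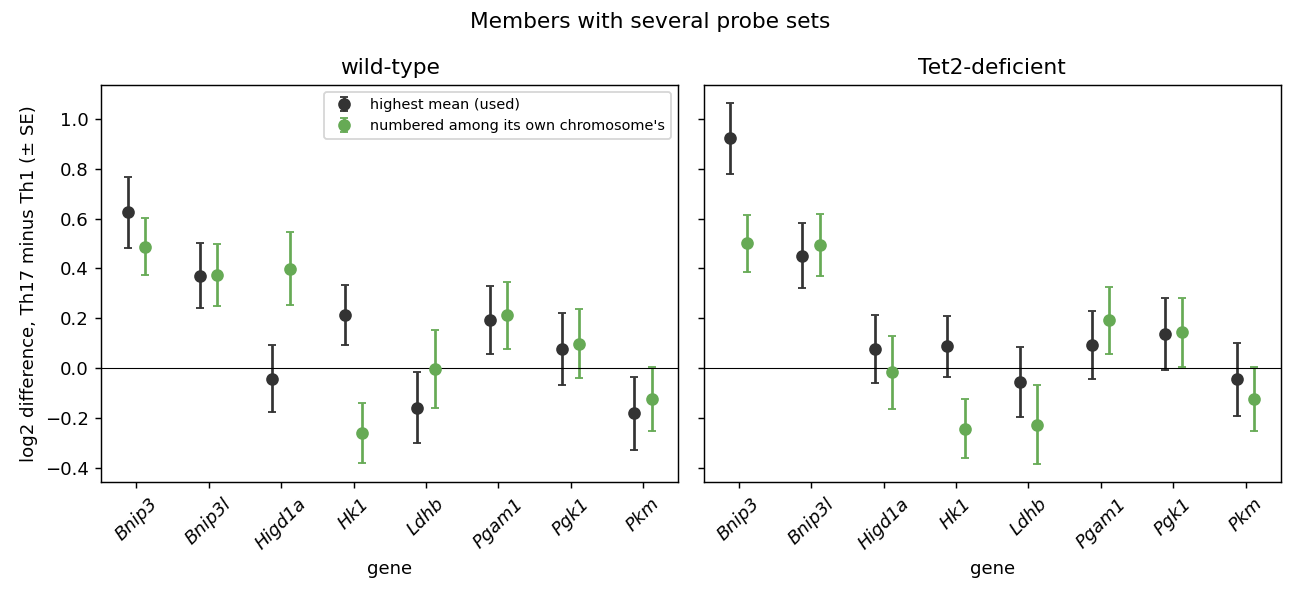
Th17 minus Th1 log2 difference (± standard error) of the 8 members with several probe sets, in wild-type (left) and Tet2-deficient cells (right). Black is the probe set with the highest mean and green the one numbered among its own chromosome's. Bnip3 and Bnip3l are above 0 with both, and Hk1 lies on opposite sides of 0.

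Other genes of the same pathways were read from 7 lists. Between the subsets, 12 of their 84 measured genes were called in wild-type cells, where 8.4% of all genes were. In Tet2-deficient cells 15 of the 84 were called, where 10.1% of all genes were. In the lists of isozymes and of regulators the counts lay near these shares. Of the HIF machinery, 2 of 11 genes rose in wild-type Th17 cells and 3 in Tet2-deficient ones, and none fell. Hif1a, the oxygen-regulated subunit of HIF-1, did not pass at 0.11 ± 0.12 (adjusted p = 0.636) and 0.17 ± 0.12 (adjusted p = 0.438). Cited2, which competes with HIF-1 for its coactivators, rose by 0.67 ± 0.15 (adjusted p = 0.0143) and 1.06 ± 0.15 (adjusted p = 0.000646). Its wild-type call was lost without wild-type Th1 replicate 1 (0.67, adjusted p = 0.0583) or wild-type Th17 replicate 2 (0.45, adjusted p = 0.152). Ep300, 1 of those coactivators, rose by 0.49 ± 0.13 (adjusted p = 0.0425) and 0.58 ± 0.13 (adjusted p = 0.0167), the first call ending with any 1 array left out (adjusted p from 0.0502 to 0.237) and the second without Tet2-deficient Th1 replicate 1 (0.50, adjusted p = 0.127) or Tet2-deficient Th17 replicate 1 (0.44, adjusted p = 0.198). Arnt, the constant partner of the alpha subunit, rose in Tet2-deficient cells by 0.58 ± 0.13 (adjusted p = 0.0164), a call that was lost without Tet2-deficient Th1 replicate 1 (0.59, adjusted p = 0.0830), Tet2-deficient Th1 replicate 2 (0.57, adjusted p = 0.0782), Tet2-deficient Th17 replicate 1 (0.52, adjusted p = 0.147) or Tet2-deficient Th17 replicate 2 (0.64, adjusted p = 0.0568).

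Of 5 transporters of glucose and lactate, 1 rose in wild-type Th17 cells (against 4.97% of all genes) and 2 in Tet2-deficient ones (against 6.32%). Slc16a3 (MCT4), the exporter of lactate, rose by 0.56 ± 0.11 (adjusted p = 0.00942) and 0.90 ± 0.11 (adjusted p = 0.000309), and the wild-type call was lost without wild-type Th17 replicate 1 (0.54, adjusted p = 0.0529) or wild-type Th17 replicate 2 (0.57, adjusted p = 0.0576). Slc2a3 (GLUT3) passed in Tet2-deficient cells at 0.61 ± 0.14 (adjusted p = 0.0134) and not in wild-type cells at 0.36 ± 0.14 (adjusted p = 0.126). That call was lost without Tet2-deficient Th1 replicate 1 (0.64, adjusted p = 0.0636), Tet2-deficient Th1 replicate 2 (0.59, adjusted p = 0.0706) or Tet2-deficient Th17 replicate 2 (0.51, adjusted p = 0.128). Slc2a1 (GLUT1), the main glucose transporter of activated T cells, differed by only 0.08 ± 0.14 and 0.03 ± 0.14, with no call.

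Among 20 measured genes for other isozymes and side steps of glycolysis, Pfkfb2 rose in wild-type cells (0.58 ± 0.12, adjusted p = 0.0117), Gys1, a glycogen synthase, and Pgm2 rose in Tet2-deficient cells (0.56 ± 0.13 and 0.49 ± 0.12, adjusted p = 0.0193 and 0.0234), and Eno3, the muscle enolase, fell in both (-1.20 ± 0.19 and -1.53 ± 0.19, adjusted p = 0.00227 and 0.000357). The Pfkfb2 call was lost without wild-type Th1 replicate 2 (0.42, adjusted p = 0.0667) or wild-type Th17 replicate 2 (0.54, adjusted p = 0.0932). The Gys1 call was lost without Tet2-deficient Th1 replicate 2 (0.47, adjusted p = 0.129), Tet2-deficient Th17 replicate 1 (0.61, adjusted p = 0.0847) or Tet2-deficient Th17 replicate 2 (0.52, adjusted p = 0.117). The Pgm2 call was lost without Tet2-deficient Th1 replicate 2 (0.39, adjusted p = 0.154), Tet2-deficient Th17 replicate 1 (0.55, adjusted p = 0.0778) or Tet2-deficient Th17 replicate 2 (0.42, adjusted p = 0.158). By the same limma fit no gene passed among 9 of the pyruvate dehydrogenase complex with its other kinases and phosphatases, where 2 in each genotype had an unadjusted p under 0.05 (22.2%, against 24.5% of all genes in wild-type and 24.8% in Tet2-deficient cells). Nor did any of 6 measured genes of the pentose phosphate pathway, where 1 in wild-type and 0 in Tet2-deficient cells had such a p. Pdhx, a subunit of the complex, stood at 0.35 ± 0.13 (adjusted p = 0.110) in Tet2-deficient cells, and Rpia, of the pentose phosphate pathway, at 0.30 ± 0.13 (adjusted p = 0.178) in wild-type cells.

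Of 25 measured further hypoxia targets, 6 rose and 0 fell in wild-type Th17 cells, against 4.97% and 3.44% of all genes. In Tet2-deficient Th17 cells 5 rose and 1 fell, against 6.32% and 3.79%. Rora, a nuclear receptor known for its part in Th17 differentiation, was 2.13 ± 0.13 and 2.41 ± 0.13 higher (adjusted p = 1.25e-06 and 4.44e-07). The chemokine receptor Cxcr4 was 1.02 ± 0.12 and 1.29 ± 0.12 higher, and the cyclin Ccng2 0.93 ± 0.16 and 1.55 ± 0.16 higher. Narf (0.85 ± 0.12 and 1.02 ± 0.12) and the lipid droplet protein Plin2 (0.64 ± 0.16 and 0.90 ± 0.16) also rose in both. Ak4, a mitochondrial adenylate kinase, rose in wild-type cells (0.45 ± 0.11, adjusted p = 0.0288), and Stc2, a secreted stanniocalcin, fell in Tet2-deficient cells (-0.77 ± 0.13, adjusted p = 0.00254). The Plin2 call in wild-type cells was lost without wild-type Th1 replicate 2 (0.49, adjusted p = 0.124) or wild-type Th17 replicate 2 (0.53, adjusted p = 0.197), and in Tet2-deficient cells without Tet2-deficient Th17 replicate 1 (0.70, adjusted p = 0.0573). The Ak4 call was lost without wild-type Th1 replicate 2 (0.39, adjusted p = 0.100), wild-type Th17 replicate 1 (0.43, adjusted p = 0.116), wild-type Th17 replicate 2 (0.48, adjusted p = 0.115), Tet2-deficient Th17 replicate 1 (0.45, adjusted p = 0.0514) or Tet2-deficient Th17 replicate 2 (0.45, adjusted p = 0.0513). It was also lost on the probe set numbered within its own chromosome (0.10, adjusted p = 0.673) and on the mean of its probe sets (0.27, adjusted p = 0.160). With the female share covariate the calls of Ak4 and Stc2 were lost too (0.45, adjusted p = 0.0730, and -0.66, adjusted p = 0.0679). Among the other listed genes that covariate ended the call of Ep300 in both genotypes and of Arnt, Slc2a3, Gys1 and Pgm2 in Tet2-deficient cells. The Ep300 differences were larger with it, at 0.53 and 0.69 in place of 0.49 and 0.58. Those of Arnt (0.57), Slc2a3 (0.50), Gys1 (0.53) and Pgm2 (0.39) were smaller. Why these calls ended was not tested. Of 9 regulators of T cell glycolysis, 1 passed, Txnip, an inhibitor of glucose uptake, which was 1.0 ± 0.12 (adjusted p = 0.000288) and 1.35 ± 0.12 (adjusted p = 2.66e-05) higher in Th17 cells. For the loss of Tet2, 0 of the 84 measured genes of the 7 lists passed by limma in Th1 cells, in Th17 cells or for the difference between them, and 5, 8 and 3 of them had an unadjusted p under 0.05 (5.95%, 9.52% and 3.57%, against 6.05%, 4.13% and 4.48% of all genes). In Th17 cells these were 3 of 5 transporters (60%), 3 of 25 further hypoxia targets, 1 of 11 HIF machinery genes and 1 of 9 regulators. The transporters did not share a direction. Slc16a1 was 10.19 and 10.17 with Tet2 and 9.83 and 9.87 without it, and Slc2a3 was 10.12 and 10.11 with it and 10.32 and 10.52 without it. The smallest such p in Th17 cells belonged to Cited2 (0.55 ± 0.15, adjusted p = 0.743).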

How the data were processed

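Expression was measured on 8 Affymetrix whole-transcript arrays, 2 per group. The values the authors deposited are log2 probe-set signals, and per the submitters' processing notes GCOS, RMA and Affymetrix Expression Console were used, with versions and options not given in the sources used here. Since RMA already brings arrays to a common scale, no scaling was added. Signals have no read depth, and their precision is limited by the small number of arrays.

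Symbols came from the platform annotation. Of 35556 probe sets, 21789 carried 1 symbol, 1621 several and 12146 none, and the first kind gave 19938 genes by the highest-mean rule. All genes were fitted with limma 3.58.1 in R 4.3.3 (lmFit on 4 group means, eBayes with an intensity trend, 4 residual and 8.32 prior degrees of freedom). Tests were two-sided, with Benjamini-Hochberg adjustment over all genes of a contrast and calls at an adjusted p under 0.05, and the script was tested on simulated data. No filter on low signal was used.

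All members could be named, those called with every array, as well as up to 3 per role with the smallest p. From the 7 wider lists, called genes (up to 6) or the 2 with the smallest p could be named, and not all are. The members and lists were chosen with earlier results of these data known. Promoters are RefSeq's, build GRCm38.p6. The 19 alternatives were a replicate block, only the arrays compared, a filter at the median level, a fit on every probe set, averaging of the probe sets of a gene, quantile normalization again, median centring, eBayes without trend, robust eBayes, leaving out each of 8 arrays, the female share covariate and, chosen after seeing the data, the probe set numbered within its gene's chromosome.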

Additional observations from a re-analysis of the deposited data

How the results depend on the processing

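No difference of a called gene reversed under an alternative. The tests of called genes gave 782 results with the same call and 203 without it. Members called between wild-type Th17 and Th1 cells numbered 10, and 6 in the fit on only the arrays compared, 2 over all probe sets, 6 after a further quantile normalization, 6 with the female share covariate and 3 to 7 with 1 array left out. In Tet2-deficient cells they numbered 15, and 5 over all probe sets, 9 after quantile normalization, 5 with the covariate and 6 to 15 with 1 array left out. The titles do not say whether same-numbered arrays were prepared together. Same-numbered arrays of different groups had correlations of their deviations from -0.19 to 0.06, which showed no strong shared shift and does not settle whether they were prepared together. The female RNA on wild-type Th17 replicate 2 and on both Tet2-deficient Th17 arrays was not seen on the same-numbered Th1 arrays. Those arrays therefore did not come from the same mix of animals. With the replicate block 6 members were called in wild-type and 11 in Tet2-deficient cells. Genes called in wild-type cells fell from 1675 to 1101 (only the arrays compared), 599 (all probe sets) and 663 to 1551 (1 array left out). In Tet2-deficient cells they went from 2015 to 1001 (all probe sets), 726 (covariate) and 801 to 2335 (1 array left out). For the loss of Tet2 in Th1 cells the 1 called gene became 0 with only the arrays compared or all probe sets, and 0 to 2 with 1 array left out. In Th17 cells 0 became 1 with the filter, 2 with robust eBayes and 0 to 4 with 1 array left out, and the difference between subsets went from 0 to as many as 4. Other settings raised the counts between the subsets. In wild-type cells 1798 genes were called with median centring, 1747 without the trend and 1717 with robust eBayes. In Tet2-deficient cells 2346 were called with only the arrays compared and 2202 with median centring. The causes of these changes were not tested. The medians of the members moved by less than 1 SD of the array medians of the members (0.0953). With 2 arrays a group, differences of the members under about 0.4 rarely passed. Among members not called, signs changed under some alternative for 15 (Th1 effect), 19 (Th17 effect), 22 (difference), 9 (wild-type subsets) and 13 (Tet2-deficient subsets), all with differences of at most 0.21.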
